A study of Mus musculus with 12 samples.

Results

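Among 12 RNA-seq libraries from the paraventricular nucleus (PVN) of the mouse hypothalamus, 4 held Meg3 at 158 to 316 RPKM (reads per kilobase of transcript per 1000000 reads) and the other 8 held it at 49.9 to 68.1 RPKM. The libraries were chosen by these values, at 100 RPKM in the Meg3 row of highest mean: the lowest library inside had 158 RPKM and the highest outside had 68.1 RPKM. The 4 high-Meg3 libraries were PBS replicates 8, 9, 10 and 12, and the other 8 were PBS replicates 7 and 11 and all 6 miR libraries. Because Meg3 chose the sides and every gene was measured in the same 12 libraries, what follows across the division is description, and no test was made across it.

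The study asked how microRNAs of sperm act on the hypothalamus of the offspring. C57/Bl6:129S6/SvEvTac hybrid zygotes were injected with 9 microRNA mimics at once (miR-29c, both miR-30a and miR-30c, miR-32 with miR-204, miR-193-5p, miR-375 and miR-532-3p, and also miR-698, each at 0.11 ng/uL, 1 ng/uL in all, in 1X DPBS) or with 1X DPBS alone, and were carried by CD1 surrogate dams. The PVN of each adult male, aged 18 to 20 weeks, was punched with a 1.0 mm needle from 2 neighbouring slices of 300 um, and 250 ng of total RNA went into a poly-A-selected, stranded, single-end library. Each group had 6 libraries, described as biological replicates, all run on 2 sequencing lanes; which animals shared a litter, and on which day a brain was punched or a library made, the labels do not say. The high-Meg3 side thus held no miR library, so that whatever sets it apart from the miR libraries cannot be told apart from the injection, and PBS replicates 7 and 11 are given apart throughout.

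Meg3 is a long noncoding RNA made from the maternal copy of the imprinted Dlk1-Dio3 domain, abundant in neurons and held mostly in the nucleus. Leng8 encodes a protein related to the SAC3 family of messenger RNA export factors, and Snrnp70 encodes the U1-70K protein of the U1 small nuclear ribonucleoprotein, which marks 5' splice sites. Some genes, among them those of the CLK kinases that phosphorylate SR splicing proteins, are known to keep part of their polyadenylated transcripts in the nucleus with an intron unspliced. A punch holds neurons, glia and vessels, and in such bulk tissue fewer cells of a type and less RNA per cell cannot be told apart.

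The reads behind the libraries, estimated from the steps between low values, numbered, in units of 1000000 reads, 31.0 to 38.1 on the high-Meg3 side, 27.6 to 30.5 in PBS replicates 7 and 11, and 22.8 to 45.1 in miR. Genes at 1 RPKM or more numbered 13303 to 13447 in the 4 high-Meg3 libraries, 13216 to 13234 in PBS replicates 7 and 11 and 13140 to 13228 in miR. Oxt and Avp, the oxytocin and vasopressin genes that mark the PVN, were at 1295 to 3983 RPKM and at 372 to 1564 RPKM over the 12 libraries, and both overlapped between the sides.

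A gene followed the division when all 4 high-Meg3 libraries lay above, or all lay below, all 8 others. The filter was a mean of 1 RPKM or more over the 12 libraries, which 13273 genes passed, and of these 1090 followed upward (8.21%) and 1054 downward (7.94%), 2144 in either direction (16.2%). Both sets were of like number and unlike size. Sizes are given as the difference between the medians of log2(RPKM + 0.5) on the 2 sides, high-Meg3 minus others, a scale that understates the change of low genes. The median difference was 0.36 for the genes that were higher, a 1.28-fold ratio, and -0.21 for those that were lower, a ratio of 0.862, beside -0.02 over all genes tested. A difference of at least 2-fold was reached by 79 of the higher genes and by 0 of the lower genes.

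With the nearest libraries of the 2 sides at least 25% apart, 180 genes stood clear upward (1.36%), with a median ratio of 1.83-fold, and 0 stood clear downward. The widest downward gap was 1.20-fold. After correction of each library for transcript GC content, 944 genes were higher and 374 lower, so that 71.6% of the genes that followed were higher, against 50.8% without it; 716 of the 1090 higher genes and 206 of the 1054 lower genes followed under both. After GC correction 125 genes stood clear upward, and 116 of these were among the 180 clear without it. Without PBS replicate 9, 1736 genes were higher. Counted by transcript row, 1589 of 18289 rows past the same filter were higher (8.69%), 1459 lower (7.98%) and 259 clear upward (1.42%).

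**Figure D1:**
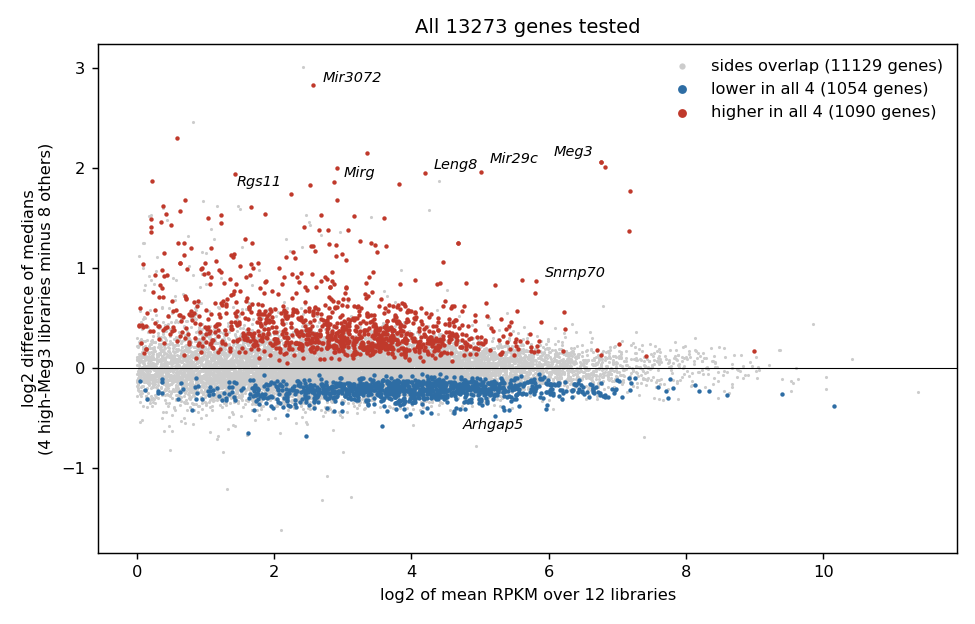
Each point is 1 of the 13273 genes tested; the x axis is the log2 of its mean RPKM over 12 libraries and the y axis the log2 difference of medians, 4 high-Meg3 libraries minus 8 others. The 1090 red genes reach 2.83, while the 1054 blue genes end at -0.68.

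Meg3 (chr12:110783608-110806810 in mm9, the build of all positions given here) stood at 158 RPKM in PBS replicate 8, 316 in replicate 9, 190 in replicate 10 and 245 in replicate 12. PBS replicates 7 and 11 held 50.6 and 58.0 RPKM, and the miR libraries 49.9, 53.1 and 68.1 RPKM (lowest, median, highest). The ratio of medians was 4.09, and both PBS libraries of the other side lay inside the miR range. The deposited table has 3 Meg3 rows, which share exons, and they differed by 2.01, 2.02 and 2.11 on the log2 scale.

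Leng8 (chr7:4088658-4099775) had the widest gap of any protein-coding gene. It was at 34.5, 38.3, 33.6 and 39.5 RPKM in PBS replicates 8, 9, 10 and 12, at 8.78 and 9.97 RPKM in PBS replicates 7 and 11, and at 8.13, 8.98 and 10.4 RPKM (lowest, median, highest) in miR, a ratio of medians of 4.05. The 4 high libraries lay close together and the 8 others within a narrow band. Snrnp70 (chr7:52631824-52651017) was at 80.8, 82.0, 72.8 and 89.8 RPKM in the same 4 libraries, at 46.5 and 47.4 RPKM in PBS replicates 7 and 11, and at 38.4, 41.9 and 46.4 RPKM in miR. For Snrnp70 both remaining PBS libraries sat just above the highest miR library, while the ratio across the division was 1.84.

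Long noncoding RNAs were among the widest differences. Miat, a nuclear noncoding RNA of neurons, was at 21.5, 33.3, 23.9 and 31.0 RPKM in PBS replicates 8, 9, 10 and 12, against 6.96 and 8.03 RPKM in PBS replicates 7 and 11 and 6.06, 7.24 and 10.04 RPKM in miR. Snhg11, a neuronal host transcript of small nucleolar RNAs, was at 214, 370, 235 and 285 RPKM against 74.0 and 83.3 RPKM, with miR at 70.5, 74.4 and 115 RPKM. In both, as in Meg3, PBS replicate 9 was the highest of the 4 and miR replicate 6 the highest of the 8 others. Neat1, the scaffold RNA of paraspeckles, followed with a smaller gap, at 9.34, 11.5, 8.47 and 10.7 RPKM against 7.18 and 4.29 RPKM and 3.599, 5.18 and 5.92 RPKM in miR.

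Malat1, the noncoding RNA of nuclear speckles, did not follow. It was at 9.83, 57.0, 15.04 and 19.2 RPKM in PBS replicates 8, 9, 10 and 12, at 7.11 and 11.2 RPKM in PBS replicates 7 and 11, and at 7.13, 8.36 and 10.7 RPKM in miR. PBS replicate 8 lay inside the range of the others and PBS replicate 9 far above all. Ogt, which encodes the O-GlcNAc transferase, was at 28.8, 47.4, 31.7 and 31.8 RPKM in the 4 and at 27.9 to 32.1 RPKM in the 8, so that PBS replicate 9 alone stood apart.

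**Figure D2:**
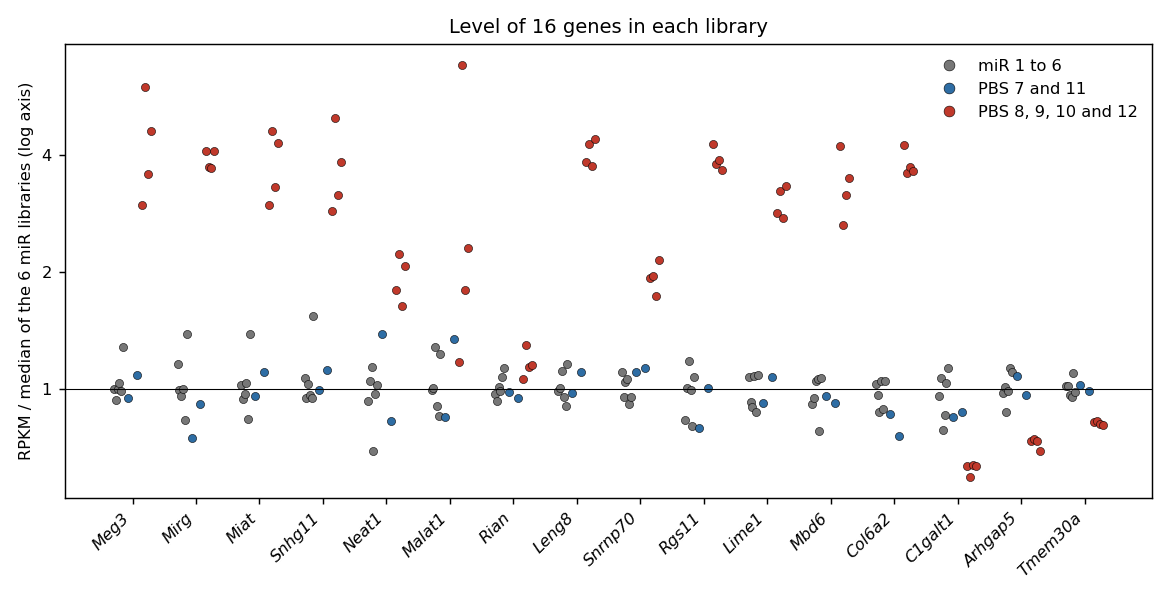
RPKM of 16 genes in each library, divided by the median of the 6 miR libraries, on a log axis; grey points are miR, blue PBS replicates 7 and 11, red PBS replicates 8, 9, 10 and 12. The red points stand apart for Meg3, Leng8 and Snrnp70, overlap the others for Malat1 and Rian, and lie below for C1galt1, Arhgap5 and Tmem30a.

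The Dlk1-Dio3 domain on chromosome 12 did not move as a block. Mirg, the noncoding transcript that carries a microRNA cluster at the far end of the domain, was at 15.3, 13.9, 13.8 and 15.3 RPKM in PBS replicates 8, 9, 10 and 12 against 2.79 and 3.42 RPKM in PBS replicates 7 and 11 and 3.10, 3.73 and 5.16 RPKM in miR, a ratio of 3.996. Rian, the noncoding RNA that lies between Meg3 and Mirg, overlapped, at 85.4, 104, 91.8 and 92.7 RPKM against 79.0 and 76.2 RPKM and 74.8, 80.3 and 90.8 RPKM in miR. The paternally expressed protein-coding genes of the domain were looked up after values of the domain had been seen. Dlk1 overlapped, at 70.0 to 86.5 RPKM in the 4 and 47.1 to 88.7 RPKM in the 8, and Dio3 was under 0.1 RPKM in all. Rtl1, whose locus is also transcribed on the opposite strand, was at 2.47 to 3.13 RPKM in the 4 and at 1.59 to 2.36 RPKM in the 8; no source used here gives the strand setting of the counting.

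The 12 genes with the widest upward gaps were Mir3072, Leng8, Rgs11, Mirg, Lime1, Mir29c, Slc2a4rg-ps, Col6a2, Tmem149, Mbd6, Meg3 and Rps6kb2. Their differences ran from 1.37 to 2.83 on the log2 scale, and all 12 still followed after GC correction. Rgs11, a regulator of G protein signalling, was at 10.4, 9.26, 9.49 and 8.96 RPKM in PBS replicates 8, 9, 10 and 12, at 1.95 and 2.46 RPKM in PBS replicates 7 and 11, and at 1.97, 2.44 and 2.89 RPKM in miR. Mbd6, a member of the methyl-CpG-binding domain family, was at 18.0, 11.3, 13.5 and 14.9 RPKM in the 4, at 4.11 and 3.95 RPKM in PBS replicates 7 and 11, and at 3.35, 4.29 and 4.57 RPKM in miR. In Rgs11 and Mbd6, unlike Meg3, PBS replicate 8 was the highest library.

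Lime1, which encodes an adaptor protein of lymphocyte signalling, was at 15.2, 17.4, 14.8 and 17.8 RPKM in the 4 high-Meg3 libraries and at 4.68 to 5.84 RPKM in the 8 others. Its downstream neighbour Slc2a4rg-ps, a pseudogene on the same strand, was at 2.17 to 2.81 RPKM and at 0.260 to 0.627 RPKM. Rps6kb2, which encodes ribosomal protein S6 kinase 2, was at 10.9 to 12.4 RPKM against 3.28 to 4.56 RPKM. Tmem149 was at 3.08 to 3.63 RPKM against 0.513 to 1.02 RPKM, while U2af1l4, a U2 auxiliary factor gene that lies beside it on chromosome 7, overlapped at 19.1 to 24.8 RPKM against 17.1 to 19.7 RPKM.

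The genes that were lower differed little and evenly. C1galt1, which makes the core 1 O-glycan, had the widest gap, at 3.43, 3.21, 3.46 and 3.43 RPKM in PBS replicates 8, 9, 10 and 12, 4.59 and 4.74 RPKM in PBS replicates 7 and 11, and 4.25, 5.40 and 6.14 RPKM in miR. Arhgap5, a GTPase-activating protein, was at 19.7, 20.0, 19.7 and 18.5 RPKM against 28.9 and 25.9 RPKM and 23.4, 26.7 and 30.3 RPKM in miR. Tmem30a, a subunit of phospholipid flippases, was at 99.0, 99.5, 97.5 and 97.1 RPKM against 123 and 119 RPKM and 114, 120 and 132 RPKM in miR. The 4 values lay close together in each of these genes, and the gap to the 8 others was narrower than the spread among the 8.

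The other 9 of the 12 widest downward gaps were those of Tdrkh, Ccng1, Manea, Syt10, Ppm1l, Zfp955b, Casd1, Stard4 and Rab11a. They include Ccng1, encoding cyclin G1, Syt10, encoding a synaptotagmin, Stard4, encoding a sterol transfer protein, and Rab11a, encoding a GTPase of recycling endosomes. Over all 12 genes the differences ran from -0.47 to -0.23. After GC correction 11 of the 12 still followed, with differences from -0.40 to -0.06. Rab11a stood at 49.6, 49.5, 48.5 and 50.3 RPKM in the 4 against 57.3 to 62.9 RPKM in the 8.

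PBS replicates 7 and 11 resembled the miR libraries over the genes that followed about as closely as over genes in general. Both lay inside the range of the 6 miR libraries in 715 of the 1090 higher genes (65.6%), in 647 of the 1054 lower genes (61.4%) and in 61.1% of all genes tested. In 19 of the higher genes both lay above every miR library, and in 13 both lay below. The median of PBS replicates 7 and 11 minus the median of miR had a median of 0.009 on the log2 scale over the higher genes, while the 4 high-Meg3 libraries exceeded PBS replicates 7 and 11 by 0.35 and miR by 0.37. For the lower genes the corresponding differences were -0.21 and -0.21. A gene followed only when PBS replicates 7 and 11 lay with miR on the same side of the 4. These differences over the genes that followed are thus partly fixed by that choice. Within PBS alone, 1921 genes were higher (14.5%) and 2495 lower (18.8%) in the 4 than in replicates 7 and 11; with only 2 libraries on 1 side, separation is easier.

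Taking the median over the 180 clear genes of each library's ratio to the miR median, PBS replicate 8 stood at 1.84, replicate 9 at 1.90, replicate 10 at 1.78 and replicate 12 at 1.89. The 8 others stood between 0.919 and 1.05. These genes were picked for a gap between the sides, so the gap in this summary is fixed by that choice. The order of the 4 within the high side was not that of Meg3 in most genes. Of the 179 clear genes other than Meg3, 20 ranked the 4 libraries as Meg3 does (11.2%), beside 84 of the 1089 higher genes (7.71%) and 2.68% of all genes tested. PBS replicate 12 was the top library in 73 of the 179 (40.8%), against 20.6% of all genes, and PBS replicate 9 in 56 (31.3%), against 26.1%. Among the 8 others, miR replicate 6 was top in 59 of the 179 (33.0%), against 16.7% of all genes.

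The genes that followed in the 2 directions differed in base composition and gene structure. Of the fifth of genes with the highest transcript GC content (median 58.5%), 20.4% were higher and 0.231% lower. Of the fifth with the lowest (median 42.2%), 1.19% were higher and 23.9% lower. The fifth with the shortest mean intron (median 556 bases) held 20.9% higher and 1.79% lower genes, and the fifth with the longest introns held 1.24% and 10.96%. The share higher went from 2.87% in the fifth with fewest exons to 14.8% in the fifth with most, while the share lower ran between 6.25% and 9.42%. Median mean intron length was 989 bases in the higher genes, 659 in the clear higher genes, 3958 in the lower genes and 2598 in all genes tested.

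**Figure D3:**
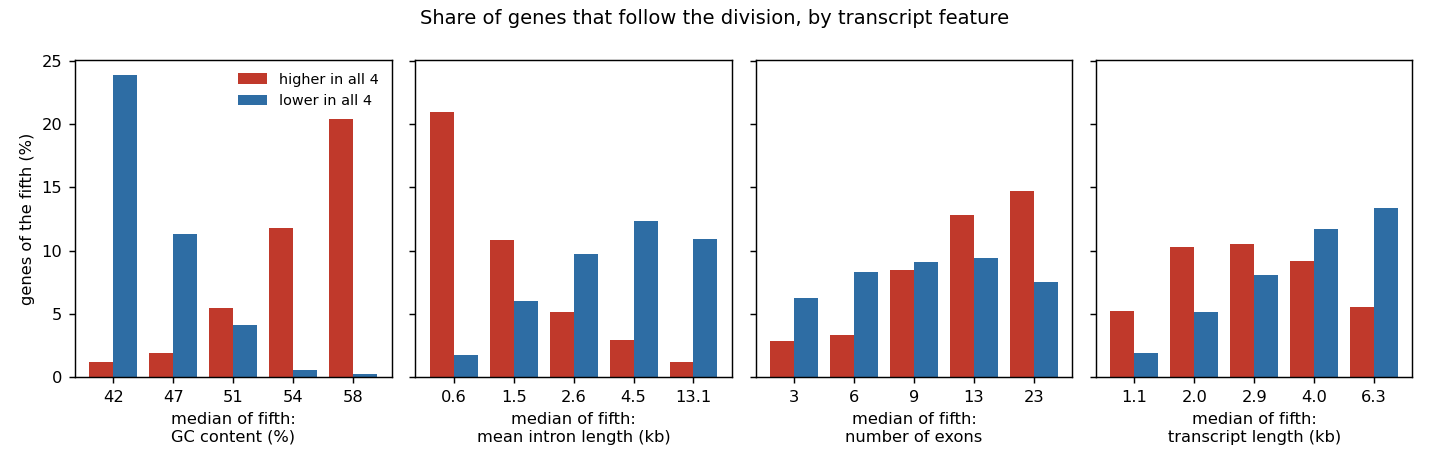
Share of genes in each of 5 groups that were higher (red) or lower (blue) in all 4 high-Meg3 libraries, in percent, by GC content, mean intron length, number of exons and transcript length; labels give the median of each group. Higher genes reach 20.4% in the fifth of highest GC content and 20.9% in that of shortest introns, and lower genes reach 23.9% in that of lowest GC content.

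GC content and intron length go together across genes, so both were split at once. Within the fifth of highest GC content, 331 of the 1085 genes in the fifth of shortest introns were higher (30.5%), and 11 of the 216 in the fifth of longest introns (5.09%). Within the fifth of shortest introns, 5 of the 130 genes of lowest GC content were higher (3.85%) and 26 were lower. Among genes of lowest GC content, the share lower was 20.0% with the shortest introns and 22.3% with the longest. The share higher thus varied with each feature at a fixed level of the other, and the share lower varied more with GC content than with intron length.

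An annotated retained-intron transcript in GENCODE M21 was more frequent among the genes that were higher. Of the higher genes found in that annotation, 731 of 997 had one (73.3%), against 535 of 970 lower genes (55.2%) and 56.5% of all tested. Genes with one were higher in 10.8% of cases and genes without one in 5.06%. Within the fifth of highest GC content these shares were 27.0% and 12.5%. By number of exons they were 15.5% and 12.9% in the fifth with most, but 2.48% and 2.87%, the other way round, in the fifth with fewest. Among genes whose leading row is a noncoding RefSeq accession, 76 of 744 were higher (10.2%) and 15 lower (2.02%), and among coding accessions 8.09% and 8.29%. No source used here says whether only reads in annotated exons were counted. If so, reads in unspliced introns of ordinary genes are not in view, except where a small RNA with a row of its own lies in an intron. Intron retention itself was not tested.

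Some rows of microRNA precursors and small nucleolar RNAs (snoRNAs) lie in introns, and others in exons or outside genes. Whether their reads come from unspliced transcripts was not tested. A poly-A library of long fragments does not capture mature small RNAs, and such a row holds reads of longer transcripts that cross the precursor. Of 614 microRNA precursor rows 109 passed the filter, 16 of them higher (14.7%, beside 8.21% of all genes tested) and 3 lower (2.75%, beside 7.94%), with a median difference of 0.17. By place in GENCODE M21, 8 rows that lie in a retained-intron transcript and in no other exon had a median of 1.26, with 5 higher and 0 lower. The 18 rows in introns had a median of 0.57, with 3 higher, and the 65 rows in exons a median of -0.05, with 7 higher and 3 lower. Of the 7 higher rows in exons, Mir3072 and Mir410 lie in Mirg, and Mir1906-1, Mir1906-2 and Mir770 at or in Meg3 by mm9 position. Because Meg3 chose the sides, the rows at or in it were near bound to follow, and they count among the 16. The Mir1906 pair shares 1 position and identical values in the deposited table and is 1 measurement. RefSeq (GRCm38.p6) places Mir1906-2 on chromosome X, and its host in GENCODE M21 was Gm27000.

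The mature sequences of the precursors with the widest gaps are shown because miR-29c, 1 of the 9 injected mimics, is among them; they are from RefSeq (GRCm38.p6), 5' to 3', with the seed (bases 2 to 8) in capitals.
Mir29c, 3' arm: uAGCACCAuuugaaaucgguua
Mir29b-2, 3' arm: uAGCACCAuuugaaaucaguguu
Mir1906: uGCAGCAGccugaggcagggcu
Mir3072, 5' arm: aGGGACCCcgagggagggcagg
Mir3072, 3' arm: uGCCCCCUccaggaagccuucu
The miR-29 pair shares the seed AGCACCA, and their precursors lie side by side in 1 host transcript. The hairpins, with the mature arms in capitals, show the whole stretch over which the reads of these 2 rows were counted.
Mir29c hairpin: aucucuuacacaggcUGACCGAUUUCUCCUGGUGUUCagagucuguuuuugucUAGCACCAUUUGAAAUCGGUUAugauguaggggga
Mir29b-2 hairpin: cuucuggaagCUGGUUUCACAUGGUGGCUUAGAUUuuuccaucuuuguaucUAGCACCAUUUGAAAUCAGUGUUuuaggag

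The Mir29c row (chr1:196863741-196863828), 88 bases, was at 68.7, 53.9, 60.9 and 66.8 RPKM in PBS replicates 8, 9, 10 and 12, at 14.1 and 15.97 RPKM in PBS replicates 7 and 11, and at 13.1, 17.9 and 22.4 RPKM in miR. The Mir29b-2 row was at 21.2, 21.2, 17.3 and 23.0 RPKM, at 4.08 and 3.25 RPKM, and at 3.52, 4.67 and 8.94 RPKM. A330023F24Rik, the noncoding host gene of both, was at 7.75, 14.1, 8.21 and 9.89 RPKM against 3.15 and 3.66 RPKM and 3.47, 3.57 and 5.12 RPKM in miR. All 3 followed the division, and the differences of the precursor rows, 1.97 and 2.15, exceeded the 1.23 of the host's row. The host was looked up after the precursors' values had been seen.

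Mir3072 (chr12:110986088-110986170), which lies in an exon of Mirg, had the widest gap of all genes tested. It was at 15.1, 13.9, 13.1 and 15.4 RPKM in PBS replicates 8, 9, 10 and 12, at 1.35 and 2.01 RPKM in PBS replicates 7 and 11, and at 1.02, 1.61 and 2.93 RPKM in miR, a ratio of medians of 8.98. Of the precursors of the other injected mimics, the rows of Mir193, Mir30a, Mir30c-1, Mir30c-2, Mir375 and Mir532 were listed at 0 in all 12 libraries, and those of Mir204 and Mir32 reached 0.445 and 1.14 RPKM in their highest library. The Mir698 row overlapped, at 4.55 to 6.96 RPKM in the 4 and 3.34 to 9.59 RPKM in the 8. None of these rows measures the mature microRNA or the mimic.

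The snoRNAs guide chemical modification of ribosomal and other RNAs and mostly lie in introns of translation genes, from which they are released after splicing. Of 105 snoRNA rows 49 passed the filter. Of these 10 were higher (20.4%, beside 8.21% of all genes tested) and 0 lower (beside 7.94%). Their median difference was 0.91, beside -0.02 over all genes. The sum over all 105 rows was 311 to 333 RPKM in the 4 high-Meg3 libraries, 178 to 223 RPKM in PBS replicates 7 and 11, and 177 to 269 RPKM in miR, with no overlap of the sides. The 17 rows in introns had a median of 1.17, with 1 higher, while the rows of their host genes had a median of -0.17. The 20 rows in retained-intron transcripts had a median of 0.91, with 6 higher and hosts at 0.05. The 9 rows in exons had a like median of 0.90, with 3 higher and hosts at 0.10. Snora64 differed by 1.62 where its host Rps2, a ribosomal protein gene, differed by -0.41, and Snora70 by 1.505 where its host Rpl10 differed by 0.34; these were taken as the rows with the widest gaps. Single snoRNA rows are short and low, so that 1 read moves them much.

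**Figure D4:**
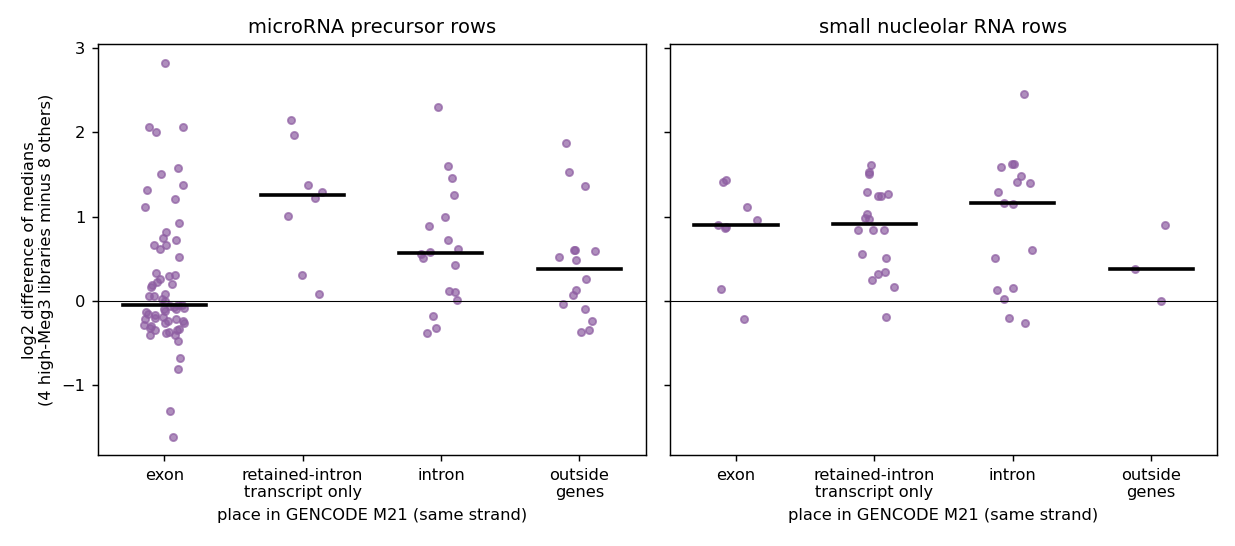
Each point is a microRNA precursor row (left) or snoRNA row (right) past the filter, placed by its position in GENCODE M21; the y axis is the log2 difference of medians, 4 high-Meg3 libraries minus 8 others, and the bar is the median. The microRNA rows in exons centre on -0.05 and those in retained-intron transcripts on 1.26. The snoRNA rows in introns centre on 1.17 and those in exons on 0.90.

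Transcript rows of 1 gene mostly moved together. Of 3023 genes with at least 2 rows past the filter, 268 had all rows higher and 58 a part of them, 202 had all rows lower and 87 a part, and 0 had rows in both directions. Of 218 genes with both coding and noncoding rows, the noncoding rows stood above the coding ones in 107. Ddx17, a DEAD-box RNA helicase, and Ttll3, a tubulin ligase, were chosen after their values were seen, to show rows that part. Of 4 Ddx17 rows, 3 followed upward with differences of 0.27, 0.27 and 0.42, while the row with another annotated end differed by -0.10 and overlapped. Of the 2 Ttll3 rows, 1 differed by 0.89 and followed, and the other by 0.24 and overlapped. Rows of 1 gene share exons, and how reads were divided between them no source used here says.

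Higher genes had a higher neighbour more often than genes in general, and lower genes a lower one. Rows of microRNAs and snoRNAs and genes that overlap were left out of this count. Of 635 higher genes with another tested gene within 5 kb, 189 had a neighbour that was also higher (29.8%), and of 108 such clear genes 44 (40.7%), against 16.4% of all genes with a neighbour. Under the same limits, the pairs in which both were clear were Lime1 with Slc2a4rg-ps, Col4a1 with Col4a2, Ankrd24 with Sirt6, Klhl17 with Plekhn1, Man2c1 with Neil1 and Sdccag3 with Snapc4, 3 of them on the same strand. Of 269 lower genes with a neighbour, 33 had one that was also lower (12.3%), against 5.79% of all genes with a neighbour. A neighbour within 5 kb was present for 635 of 1090 higher genes and for 5165 of all 13273. These shares were not split by number of neighbours, GC content or intron length. Chromosome 17 had the largest share of higher genes, 88 of 641 (13.7%), then chromosome 7 with 120 of 995 (12.1%). Chromosome 13 had the smallest, 12 of 472 (2.54%). The median GC content of tested transcripts was 53.6%, 53.7% and 46.6% on chromosomes 17, 7 and 13.

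Among lists of RNA-processing genes, those of splicing regulators held the larger shares of higher genes. These lists were made with earlier results from these samples known, so their counts are no independent evidence. Leng8 and Snrnp70, which count among their members, were named in the description of the division. Of 34 tested SR and SR-related genes, 13 were higher (8.21% of all genes tested were) and 0 lower, with a median difference of 0.13. Besides Leng8 these include Arglu1, at 25.9 to 37.1 RPKM in the 4 against 16.7 to 21.1 RPKM in the 8, and Srsf5, at 42.6 to 53.1 RPKM against 34.0 to 39.4 RPKM. Srsf7 overlapped, at 33.1 to 39.6 RPKM against 34.0 to 38.0 RPKM. Of 10 CLK and DYRK kinase, SR kinase and cyclin L genes, 5 were higher and 1, Dyrk1a, was lower. Clk1 was at 27.3, 40.9, 27.1 and 33.2 RPKM in PBS replicates 8, 9, 10 and 12 against 19.6 to 24.01 RPKM in the 8 others, and Ccnl2 at 12.7, 19.9, 13.5 and 14.1 RPKM against 7.31 to 8.496 RPKM. Clk4 was at 13.4 to 21.6 RPKM against 10.98 to 12.9 RPKM.

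The share of higher genes among snRNP protein genes was near that of all genes. Of 37 tested genes of the U1, U2 and tri-snRNP particles, 2 were higher, Snrnp70 and Prpf40b, a U1-associated factor at 19.3 to 20.3 RPKM in the 4 against 10.4 to 14.0 RPKM in the 8, and 0 were lower. That is 5.41% higher beside 8.21% of all genes tested, and the list's median was 0.05. Of 49 hnRNP and other RNA-binding protein genes, 9 were higher (18.4%) and 3 lower (6.12%, beside 7.94% of all genes tested), with a median of 0.02. After GC correction 17 of these were higher and 0 lower, where 944 and 374 of all 13273 genes tested were. Tia1, a stress granule protein gene of that list, was at 9.30 to 19.6 RPKM in the 4 and at 6.54 to 9.24 RPKM in the 8. Of 25 nuclear export and exosome genes, 5 were higher (20%) and 2 lower (8%). Among the higher ones, Pabpn1, the nuclear poly(A)-binding protein gene, was at 71.5, 68.1, 69.0 and 78.8 RPKM against 35.04 to 40.3 RPKM. Nxf1, the main mRNA export receptor gene, was at 21.2 to 27.4 RPKM against 15.5 to 17.9 RPKM. Of 14 nonsense-mediated decay and exon junction genes 1 was higher and 1 lower (7.14% each), near the shares of all genes tested. Of 4 paraspeckle protein genes and 2 O-GlcNAc enzyme genes none followed.

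Of 13 tested nuclear or imprinted noncoding RNAs, 5 were higher (Meg3, Mirg, Miat, Snhg11 and Neat1) and 0 lower. Meg3 defined the sides and was bound to be among them, which leaves 4 of the other 12, beside 8.21% of all genes tested. This list too was made with earlier results from these samples known, so the count is no independent evidence. Of 11 host genes of snoRNAs, 1 was higher, Snhg1. Of 319 Zfp zinc finger genes, 16 were higher (5.02%) and 39 lower (12.2%), beside 8.21% and 7.94% of all genes tested. After GC correction 23 were higher and 7 lower, where 944 and 374 of all 13273 genes tested were. Zfp57, whose protein protects methylation at imprinted loci, was at 6.27 to 7.70 RPKM in the 4 against 2.55 to 3.78 RPKM in the 8. The 21 immediate early genes overlapped in every case, with Fos at 57.3, 2.19, 19.6 and 32.5 RPKM in PBS replicates 8, 9, 10 and 12, 6.41 and 6.55 RPKM in PBS replicates 7 and 11 and 3.24, 7.84 and 57.3 RPKM in miR. Of 21 heat shock and stress genes 1 was higher and 2 were lower, of 82 cytosolic ribosomal protein genes 1 and 1, and of 81 respiratory chain genes 0 and 1. None of 21 synaptic vesicle genes, 55 clustered protocadherins and 9 replication-dependent histones followed.

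Collagen chains held the largest share among the protein-coding lists: 9 of 14 were higher and 0 lower, with a median of 0.80. Of all genes tested 8.21% were higher and 7.94% lower. After GC correction 8 collagen chains were higher. Collagens were put on a list with earlier results from these same samples known, so the count is no independent evidence. Col6a1 was at 1.88, 2.03, 4.90 and 2.95 RPKM in PBS replicates 8, 9, 10 and 12, at 0.418 and 0.560 RPKM in PBS replicates 7 and 11, and at 0.419, 0.462 and 0.631 RPKM in miR. Its neighbour Col6a2 was at 2.57, 2.18, 2.26 and 2.22 RPKM against 0.462 to 0.640 RPKM in the 8. The 2 chains of collagen VI did not rank the 4 libraries alike, and both were low.

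Markers of cell types that carry collagens moved less than the collagens did. Their median differences were 0.36 for fibroblast, 0.18 for endothelial and 0.38 for mural markers. All 3 fibroblast, all 10 endothelial and 3 of 4 mural differences were above 0. Of 3 tested fibroblast markers none followed, and their summed level was 8.54 to 9.24 RPKM in the 4, 6.43 to 8.65 RPKM in PBS replicates 7 and 11 and 5.996 to 7.38 RPKM in miR. Of 10 endothelial markers 2 were higher, Eng and Pecam1 (8.21% of all genes tested were), with a summed level of 91.2 to 103 RPKM, 85.9 to 102 RPKM and 77.6 to 94.7 RPKM. After GC correction Eng overlapped and 1 endothelial marker was higher. Of 4 mural markers 1 was higher, with 17.1 to 22.6 RPKM, 17.6 to 19.5 RPKM and 15.8 to 20.6 RPKM. The part of vessels or meninges in the collagen values was not tested.

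Glial markers lay slightly lower. Of 10 astrocyte markers 5 were lower and 0 higher, where 7.94% of all genes tested were lower and 8.21% higher. All 10 differences were below 0 and the median was -0.21. The summed level of the astrocyte markers was 1065 to 1271 RPKM in the 4, 1266 to 1379 RPKM in PBS replicates 7 and 11 and 1296 to 1449 RPKM in miR. Aqp4, the water channel of astrocyte endfeet, was at 23.5, 23.6, 20.3 and 18.2 RPKM in PBS replicates 8, 9, 10 and 12 against 25.2 to 30.6 RPKM in the 8. After GC correction 2 of the 10 were lower, and Aqp4 overlapped. Of 10 microglial markers 2 were lower and 0 higher. Of the 10, 9 had a difference below 0, and the median was -0.12. Ctss, the cathepsin S gene, was among the lower ones, at 30.3 to 36.2 RPKM in the 4 against 37.7 to 48.3 RPKM in the 8. After GC correction 2 of the 10 were lower, but not Ctss, which overlapped. Of 6 oligodendrocyte precursor markers 1 was higher and 1 lower, and none of 10 oligodendrocyte markers followed, their sums running from 414 to 661 RPKM, 415 to 1516 RPKM and 582 to 957 RPKM.

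Neuronal and regional markers overlapped throughout. None of 9 neuron markers, 15 PVN neuropeptide and secretory genes, 7 PVN transcription factors, 11 genes of neighbouring nuclei, 6 ependymal, 4 choroid plexus and 4 red blood cell markers followed in either direction. The neuron markers summed to 1420 to 1656 RPKM in the 4, 1476 to 1548 RPKM in PBS replicates 7 and 11 and 1440 to 1633 RPKM in miR. Crh, the corticotropin-releasing hormone gene, was at 18.7, 14.7, 13.2 and 13.0 RPKM in PBS replicates 8, 9, 10 and 12, at 5.32 and 19.6 RPKM in PBS replicates 7 and 11, and at 8.18, 10.7 and 11.6 RPKM in miR. PBS replicates 7 and 11 thus lay at the 2 ends of the range for Crh, and PBS replicate 7 was also the lowest library for Avp. The part of the punch's cell makeup in the division was not tested.

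**Figure D5:**
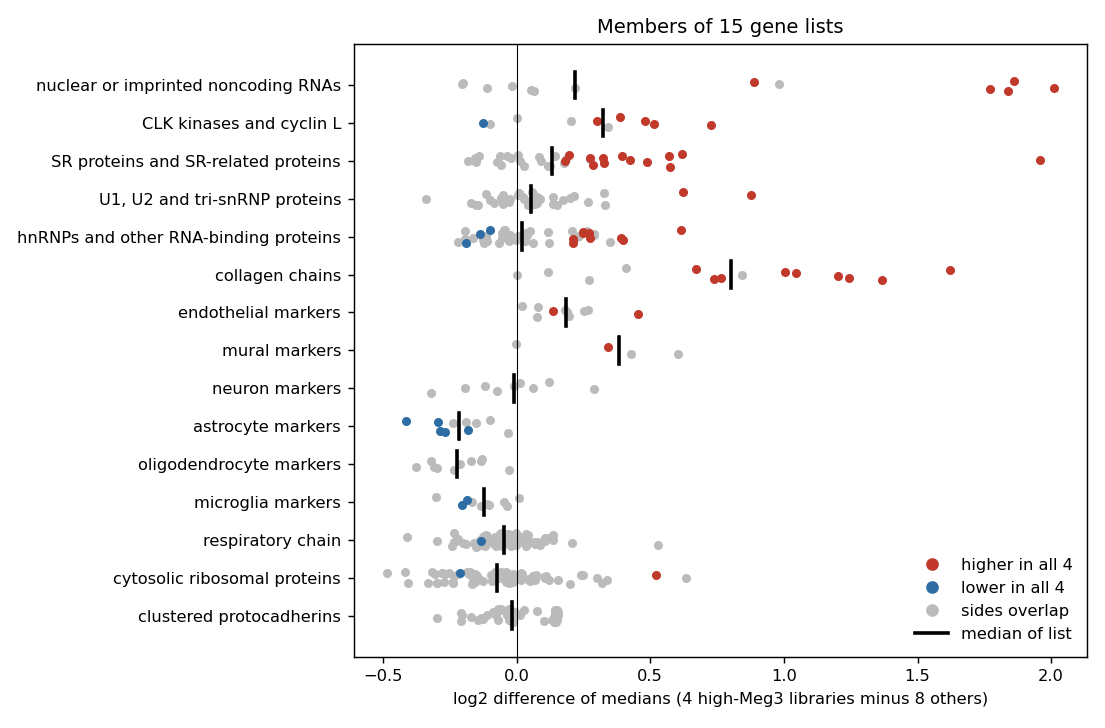
Log2 difference of medians (4 high-Meg3 libraries minus 8 others) of each member of 15 gene lists; red members were higher in all 4, blue lower in all 4, grey overlapped, and the bar is the list's median. Collagen chains centre on 0.80 and astrocyte markers on -0.21.

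By the labels' own groups, miR against PBS, limma called 0 of 13273 genes at an adjusted p of 0.05 (0%), and 2687 had an unadjusted p under 0.05 (20.2%). This comparison contains the division, since 4 of its 6 PBS libraries are the high-Meg3 side. Meg3 differed by -1.32 (miR minus PBS, log2, SE 0.38), Leng8 by -1.30 (SE 0.34) and Snrnp70 by -0.68 (SE 0.15). Meg3 chose the sides, and Leng8 and Snrnp70 were named in the description of the division. Their p-values are therefore no independent evidence and are left out. Without PBS replicate 7 limma called 909 genes, 666 of them lower in miR, and without PBS replicate 11 it called 429, 325 of them lower in miR. Either omission leaves a PBS group closer to the high-Meg3 side, so these calls cannot be told apart from the division. Leaving out any other library gave 0 calls, except miR replicate 3, without which 1 gene was called.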

How the data were processed

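The deposited table gives RPKM, computed by the authors, for 30399 transcript rows with 1 column per library; per the labels the libraries were poly-A-selected and stranded. The submitters' processing notes name edgeR and mm9; no source used here gives an aligner, counter or strand setting, or which reads the scaling counts. Each gene was represented by its row of highest mean, and genes whose mean reached 1 RPKM were kept (13273 of 23256 genes; 913 rows carry no symbol). Depth was estimated from the steps between low values of olfactory receptor rows, read as means over 2 lanes; all low values used lay within 2% of such steps. Differences are of medians of log2(RPKM + 0.5). Gene structure came from GENCODE M21 by accession or symbol, with no coordinates mixed between builds. limma 3.58.1 (variance trend, Benjamini-Hochberg adjustment), tested on simulated data, compared miR with PBS. Its p-values set the difference between the groups against the spread of these libraries within each group. Named genes were the 12 widest gaps in each direction, the 2 largest differences per list, the 5 widest microRNA gaps and a set that always appears (Meg3, Leng8, Snrnp70, Malat1, Miat, Snhg11, Rian, Neat1, Clk1, Clk4, Ogt, Srsf5, Srsf7, Oxt, Avp, Crh); other names were chosen after their values were seen. The libraries and lists were chosen with earlier results of these data known. Olfactory receptors, a list as well, had 0 members past the filter. A result that names a withheld item is not reported here.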

Additional observations from a re-analysis of the deposited data

Results flagged for a closer look

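Of 214 checks of 6 libraries each (each named gene in miR and in PBS), 21 found 1 library far from the other 5 of its group by Dixon's criterion at 95%; chance flags about 1 in 20 groups, and genes in 1 library are not independent. In miR replicate 6, several genes that follow the Meg3 division were the highest of the 6. Meg3 was at 68.1 RPKM (the other 5 ended at 55.1), Miat at 10.04 RPKM (7.52) and Snhg11 at 115 RPKM (79.6). A330023F24Rik was at 5.12 RPKM (3.65), Rbm5 at 25.8 RPKM (23.2) and Tia1 at 9.24 RPKM (7.30). Mir1906-1 and Mir1906-2, which share 1 position in the deposited table, were at 62.2 RPKM (52.8). The same library was highest for Ctss, at 48.3 RPKM (41.8), and lowest for Mgea5, at 38.1 RPKM (the other 5 began at 42.5), and Nefl, at 58.9 RPKM (76.1).

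In PBS replicate 9, Malat1 was at 57.0 RPKM where the next PBS library had 19.2, and Ogt at 47.4 RPKM where the next had 31.8. In PBS replicate 7, the oligodendrocyte genes Ermn and Opalin were at 13.4 and 15.8 RPKM (the other 5 ended at 5.68 and 8.24), Olig1 was at 45.4 RPKM (31.7), Clic6 at 7.19 RPKM (5.49) and Snhg7 lowest at 8.40 RPKM (10.8). The remaining cases were Slc2a4rg-ps at 0.260 RPKM and Zfp955b at 7.44 RPKM in miR replicate 5, and Tagln at 1.54 RPKM in miR replicate 4.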

How the results depend on the processing

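Sides that overlap in 1 library do not follow, so each count depends on the libraries set against each other. Against PBS replicates 7 and 11 only, 1921 genes were higher, 2495 lower, 328 clear upward and 17 clear downward. With GC correction 374 genes were lower. With a filter at 5 RPKM 91 genes were clear upward, from fewer genes tested, and with a gap of 1.5-fold 83 were, by a stricter rule. Leaving out 1 library at a time gave 1105 to 1736 higher genes, 1078 to 1459 lower, 181 to 230 clear upward, 0 to 4 clear downward (4 without miR replicate 3) and 0 to 909 limma calls (909 without PBS replicate 7); the highest counts of higher, lower and clear upward genes came without PBS replicate 9. The cause of these shifts was not tested. Under median scaling 1015 genes were higher and 1258 lower; scaling, quantile normalization, the pseudocount and the row chosen kept all counts within 1.5 times, and limma made 0 calls under each of its 7 alternatives that kept all libraries. No alternative reversed a named difference of a gene that followed. No paired analysis was possible because the miR and PBS libraries share no replicate number. Depth limits the short small RNA rows most.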
